A study of Sus scrofa with 12 samples.

Results

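Transcripts of the oxidative phosphorylation complexes were followed in the liver of 12 adult German Landrace pigs. Members were chosen by name: a gene whose probe set carried that symbol alone, beginning with NDUF, UQCR or ATP5, with SDH and a letter from A to D, or with COX and a digit. This gave 65 of the 6765 genes named on the array. They were 33 of complex I, 4 of complex II, 2 of complex III, 7 of complex IV, 13 of complex V and 6 assembly or accessory factors that are no subunits. Where a gene had several probe sets, the one with the highest average across the 12 animals was read, and all 65 passed the filter on low signals. None of the 13 protein genes of the mitochondrial genome was named on the array, so every value concerns genes of the nucleus.

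Stress response and aggressiveness were each labelled as low or high. The 4 combinations of these labels comprised 3 animals each (1 female and 2 males), and every animal had an array of its own. The series asks how psychosocial stress appears in liver transcripts, and its design text speaks of 6 pigs per psychosocial group, which is the number at each level of either label. How the traits were scored, and whether the pigs had met a stressor before sampling, was not given in the labels. In the names of animals the first word is the stress response and the second the aggressiveness, so that low-high 1 had low stress response and high aggressiveness.

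Oxidative phosphorylation is the last stage of respiration in the inner mitochondrial membrane. Complexes I and II take electrons from NADH and succinate and pass them through ubiquinone to complex III, and from there by cytochrome c to complex IV, which reduces oxygen. Complexes I, III and IV pump protons, and complex V, the ATP synthase, makes ATP as the protons return. Hepatocytes are rich in mitochondria and spend this ATP on the synthesis of glucose, urea and plasma proteins.

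Probe set signals were linear intensities, and their 2% trimmed mean was 500.2 on each array. How the signals were scaled was not given in the sources used here. With 12 arrays, precision is limited by their number. The median signal per array lay between 93.3 and 117.4, and the correlation of log2 signals between arrays ran from 0.945 to 0.975. The lowest median correlations with the other arrays were those of the female high-high 3 (0.9527) and the male high-low 3 (0.9567). The next, low-high 3 at 0.9572, was close to high-low 3. Of 13 hepatocyte markers 12 were measured, among them albumin, with ALB signals of 35650 to 61130, and their summed signal was 345400 to 502600 in the pigs with low and 382100 to 443200 in those with high stress response. Of the 12, 0 passed for either label in limma. For aggressiveness 11 lay above 0 with a median log2 difference of 0.14, against 52.0% of all tested probe sets. For stress response 7 lay above 0, against 55.7%, and for males minus females 3, against 41.8%. Marker lists for muscle, Kupffer cells, endothelium, cholangiocytes, stellate cells, neutrophils, lymphocytes and erythroid cells held 0 genes that passed for either label in limma, and the ranges of their summed signals overlapped between the levels of both labels. At an unadjusted p under 0.05 in limma lay 8.16% of all tested probe sets for stress response and 3.22% for aggressiveness. For stress response these held 2 of 8 tested markers of Kupffer cells and macrophages, CD163 (0.57 ± 0.18) and MARCO (-0.78 ± 0.25). They also held 2 of 6 of cholangiocytes, KRT18 (0.98 ± 0.28), a keratin of hepatocytes too, and PROM1 (-1.07 ± 0.34). For aggressiveness there were, of the 6 tested cholangiocyte markers, EPCAM (-0.45 ± 0.20), PROM1 (0.75 ± 0.34) and SPP1 (-0.89 ± 0.40). Of the 5 tested neutrophil markers there was NCF4 (0.39 ± 0.11). The part of these cells in the values below was not tested.

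Most of the 65 genes varied little between animals. In 58 the highest of the 12 signals was less than 2 times the lowest, and in 4 it was more than 4 times the lowest. The residual standard deviation (SD) after removal of the 4 groups and sex had a median of 0.162 on the log2 scale over the members, against 0.311 over all 15999 probe sets tested. Among probe sets with a mean signal of at least 1000 it was 0.161 for the 58 members and 0.212 for all 3192.

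**Figure D1:**
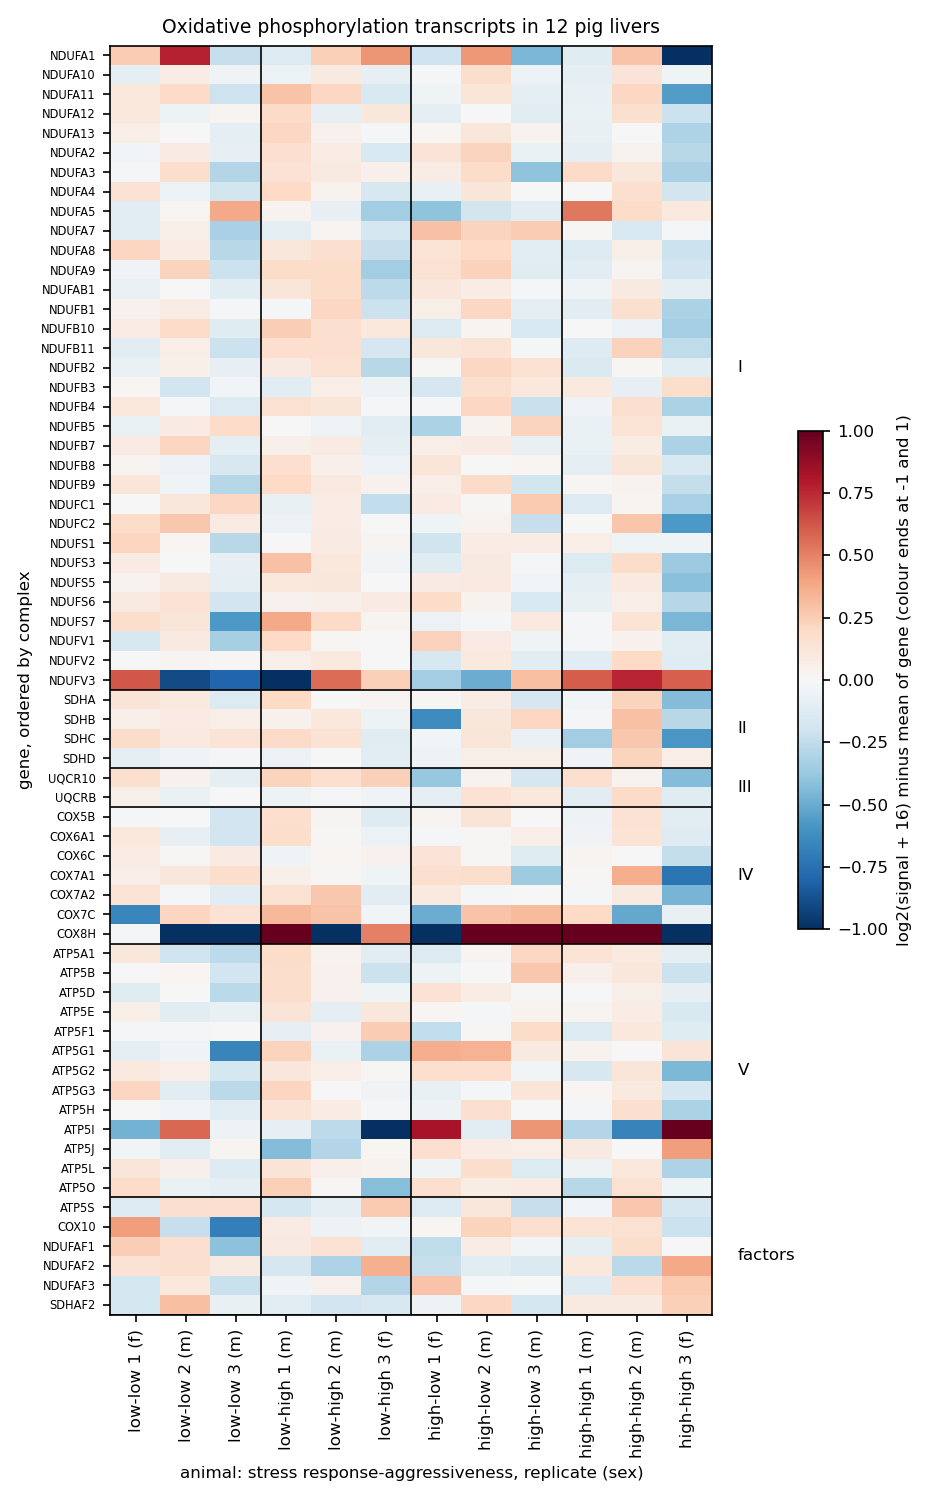
Log2(signal + 16) of each of the 65 genes minus its mean over the 12 animals, with genes in rows ordered by complex, animals in columns (f female, m male), and colour ending at -1 and 1. The column of high-high 3 is mostly blue through complexes I to IV, and the rows of NDUFV3, COX8H, ATP5I and NDUFA1 have the strongest colours.

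Scores of single animals spread more widely than the group means. To summarise an animal, each gene was centred on its own mean over the 12 arrays and the centred log2 values of the members were averaged. This score was lowest in high-high 3 at -0.18 and in low-low 3 at -0.14, and highest in high-high 2 at 0.11 and high-low 2 at 0.11. The pooled SD of the score within groups was 0.104. The group means were -0.03 ± 0.10 in low-low, 0.02 ± 0.07 in low-high, 0.03 ± 0.07 in high-low and -0.02 ± 0.15 in high-high (SD, n = 3 each). Thus both the highest and the lowest score of all lay in the high-high group.

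In high-high 3, 28 of the 65 members (43.1%) had their lowest signal of the 12 animals, against 9.78% of all tested probe sets and 17.2% of those with a mean signal of at least 1000. These were 16 of complex I, 2 of complex II, 2 of complex III, 3 of complex IV, 5 of complex V and 0 of the factors. Its score was -0.23 for complex I, -0.31 for complex II, -0.28 for complex III and -0.40 for complex IV, but -0.02 for complex V and 0.08 for the factors. COX8H, a dim gene with a residual SD of 1.18, counted as much as each other gene in the complex IV score. Its signal was 21.9 in high-high 3 (the others 15.2 to 194.6), and complex IV was not scored without it. The 3′ over 5′ ratio of control probe sets in high-high 3, a sign of RNA quality taken as a mean of log2 values, was 2.18. It lay within the 1.99 to 2.40 of the other animals. For GAPDH alone the ratio was 0.95 in high-high 3, 1.01 in low-low 3, 1.03 in low-high 3 and 0.61 to 0.91 in the others. High-high 3, low-low 3 and low-high 3 also had the lowest scores (-0.18, -0.14 and -0.06). For EF1A the ratio was 0.93 in high-high 3 (the others 0.69 to 0.99). No part of RNA quality in the low score was tested. High-high 3 also had the highest KRT18 signal (14870, the others 2891 to 10860). KRT18 made up most of its summed signal of the cholangiocyte markers, which was also the highest (15960, the others 4427 to 12450). The cholangiocyte markers KRT19 (13.0, the others 6.02 to 144.4) and EPCAM (97.7, the others 50.6 to 172.4) lay within the range of the others. Its CD163 signal was the highest (2587, the others 954 to 2043). The summed signal of the Kupffer cell and macrophage markers was 22450 (the others 20150 to 27630). Their part in the low score was not tested. In low-low 3, a male, 15 members (23.1%) had their lowest signal. This held for 9.49% of all tested probe sets and 11.2% of those with a mean signal of at least 1000. In low-low 3 complex V (-0.17) and the factors (-0.19) were low as well.

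**Figure D2:**
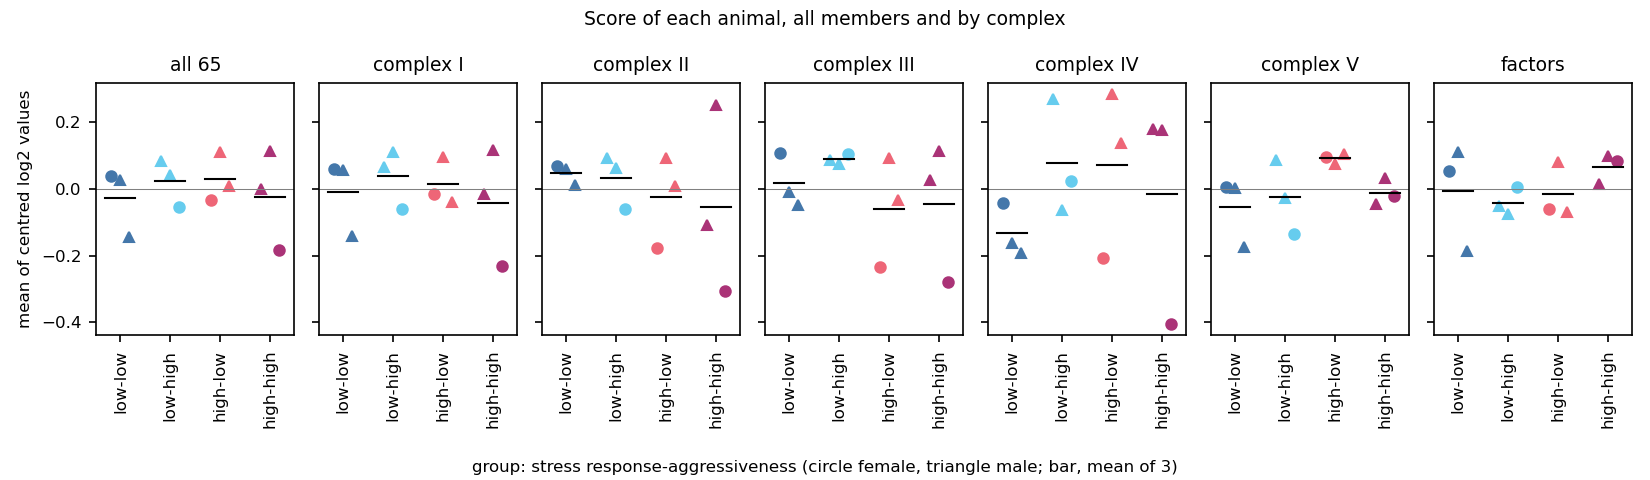
Score of each animal (average of the centred log2 values of the genes) for all 65 members and for each complex, by group, with circles for females, triangles for males and a bar for the mean of 3. High-high 3 is the lowest point for all members (-0.18) and in complexes I to IV, while in complex V its score is -0.02. The complex IV score includes the dim and uneven COX8H.

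The first comparison asks whether stress response goes with a different output of the respiratory genes. None of the 65 passed at an adjusted p of 0.05 in limma (smallest adjusted p 0.573), and 0 of the 15999 probe sets passed (0%). At an unadjusted p under 0.05 there was 1 member, ATP5J, against 8.16% of all tested probe sets. High minus low stress response, 26 members lay above 0 and 39 below, with a median log2 difference of -0.02, against 55.7% above 0 and a median of 0.03 over all tested. Under median centring of the arrays 18 lay above 0 and under quantile normalization 32. Without both arrays with the lowest median correlations 44 lay above 0, with a median of 0.04. For no member did all 6 animals of one level lie above all 6 of the other, which held for 0.538% of all tested. In bulk liver, fewer cells of a type and less RNA per cell cannot be told apart.

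The intervals bound what could have been missed. For 60 of the 65 members the 95% interval of the stress difference lay within 1.5-fold in either direction, which held for 54.8% of all tested probe sets. The other 5 were NDUFA1, NDUFV3, COX8H, ATP5I and ATP5G1. The members were bright, with 53 of 65 in the top 10% by mean signal. Bright probe sets spread less, with a median residual SD of 0.212 at a mean signal of at least 1000, against 0.311 over all tested. The share among probe sets of like signal is not given here.

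In complex I, the entry point for NADH, 11 of 33 members lay above 0 with a median of -0.03. The smallest p belonged to NDUFB10, an accessory subunit of the membrane arm. Its signals with low stress response were 5410 at the lowest, 6442 at the median and 6989 at the highest, and with high stress response 4662, 5488 and 5991. The ranges overlapped, and the log2 difference was -0.22 ± 0.11 (SE, adjusted p = 0.642). NDUFA7, an accessory subunit of the matrix arm, had signals of 947 to 1238 (median 1108) with low and 1066 to 1454 (median 1290) with high stress response, a log2 difference of 0.20 ± 0.12 (adjusted p = 0.688). NDUFA1, a small membrane subunit needed for assembly of the complex, had 5146 to 10280 (median 7164) with low and 2505 to 8139 (median 5389) with high stress response, and its log2 difference of -0.44 ± 0.27 had an interval from -1.03 to 0.14 and was -0.23 without high-high 3. A second probe set for NDUFA1, with a mean signal of 5164 against 6383 for the first, gave -0.01 ± 0.10 and so a smaller SE. The core subunits of the matrix arm, most of which carry the flavin or iron-sulphur clusters, had differences of -0.02 for NDUFS1, -0.12 for NDUFS3, -0.11 for NDUFS7, 0.06 for NDUFV1 and -0.06 for NDUFV2, all on the log2 scale. Of 12 second probe sets of members that were tested, 10 had the sign of the first, and those of SDHB (0.06 ± 0.17) and SDHAF2 (-0.13 ± 0.15) had the opposite sign. The 2 of NDUFV2 gave -0.37 ± 0.16 and -0.02 ± 0.16.

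Complex II is succinate dehydrogenase, shared with the citric acid cycle. Of its 4 genes, 3 lay below 0. SDHC, which helps to anchor the enzyme in the membrane, had signals of 6371 to 7878 (median 7638) with low and 4607 to 8341 (median 6692) with high stress response, a log2 difference of -0.21 ± 0.14 (adjusted p = 0.72). SDHD, the other anchor, differed by 0.11 ± 0.10, SDHA, the flavoprotein that oxidises succinate, by -0.11 ± 0.13, and SDHB, the iron-sulphur subunit, by -0.10 ± 0.13. The SDHB signal was 10780 in high-low 1, below the 13730 to 20450 of the other 11 animals, and its difference was -0.0076 without this animal and -0.033 without low-low 1.

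Of complex III, UQCR10 and UQCRB were measured, both small subunits outside the catalytic core. UQCR10 had signals of 14180 to 17890 (median 16950) with low and 11180 to 16990 (median 14470) with high stress response. The ranges overlapped, and the log2 difference was -0.25 ± 0.13 (adjusted p = 0.649), with an interval from -0.52 to 0.03. UQCRB, next to the ubiquinone site, differed by 0.04 ± 0.10.

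In complex IV, cytochrome c oxidase, 3 of 7 members lay above 0. The liver form COX7A2 differed by -0.10 ± 0.13 and its muscle and heart counterpart COX7A1 by -0.13 ± 0.17. COX8H, the heart form of subunit 8, was dim and uneven, with signals of 15.2 to 152.9 (median 43.2) with low and 15.7 to 194.6 (median 151.1) with high stress response. Its log2 difference of 0.72 ± 0.56 had an interval from -0.52 to 1.95. The summed signal of 15 muscle markers on the array, of which 2 passed the filter, was 407.5 to 631.3 with low and 329.8 to 556.1 with high stress response.

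In complex V 7 of 13 members lay above 0 with a median of 0.05. ATP5J, coupling factor 6 of the stalk, had signals of 575 to 798 (median 748) with low and 781 to 1050 (median 830) with high stress response. Of the pigs with high stress response, 5 of 6 lay above every pig with low stress response, and high-high 2 at 781 lay below low-low 3 at 798 and low-high 3 at 792. The log2 difference was 0.27 ± 0.11 (limma, unadjusted p = 0.032, adjusted p = 0.573), with an interval from 0.03 to 0.52. The second probe set of ATP5J had a mean signal of 18.4 and was not tested, and averaging both turned the difference to -0.14.

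ATP5G1 is 1 of 3 genes that encode the same c subunit of the rotating ring. Its signals were 6162 to 11360 (median 9225) with low and 9706 to 12540 (median 10530) with high stress response, a log2 difference of 0.32 ± 0.16 (adjusted p = 0.632) that was 0.21 without low-low 3. The other c-subunit genes differed by -0.06 ± 0.13 for ATP5G2 and -0.01 ± 0.12 for ATP5G3. ATP5I, subunit e of the membrane part, differed by 0.44 ± 0.32 with signals between 839 and 3705, and by 0.16 without high-high 3. The catalytic subunits ATP5A1 and ATP5B differed by 0.08 ± 0.12 and 0.06 ± 0.11.

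Of the factors, 3 of 6 lay above 0. NDUFAF3, an assembly factor of complex I, had 2434 to 3213 (median 2765) with low and 2719 to 3627 (median 3170) with high stress response, a log2 difference of 0.19 ± 0.13 (adjusted p = 0.721). COX10, which makes the precursor of heme A for complex IV, differed by 0.16 ± 0.18, and SDHAF2, which attaches the flavin to SDHA, by 0.13 ± 0.13.

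**Figure D3:**
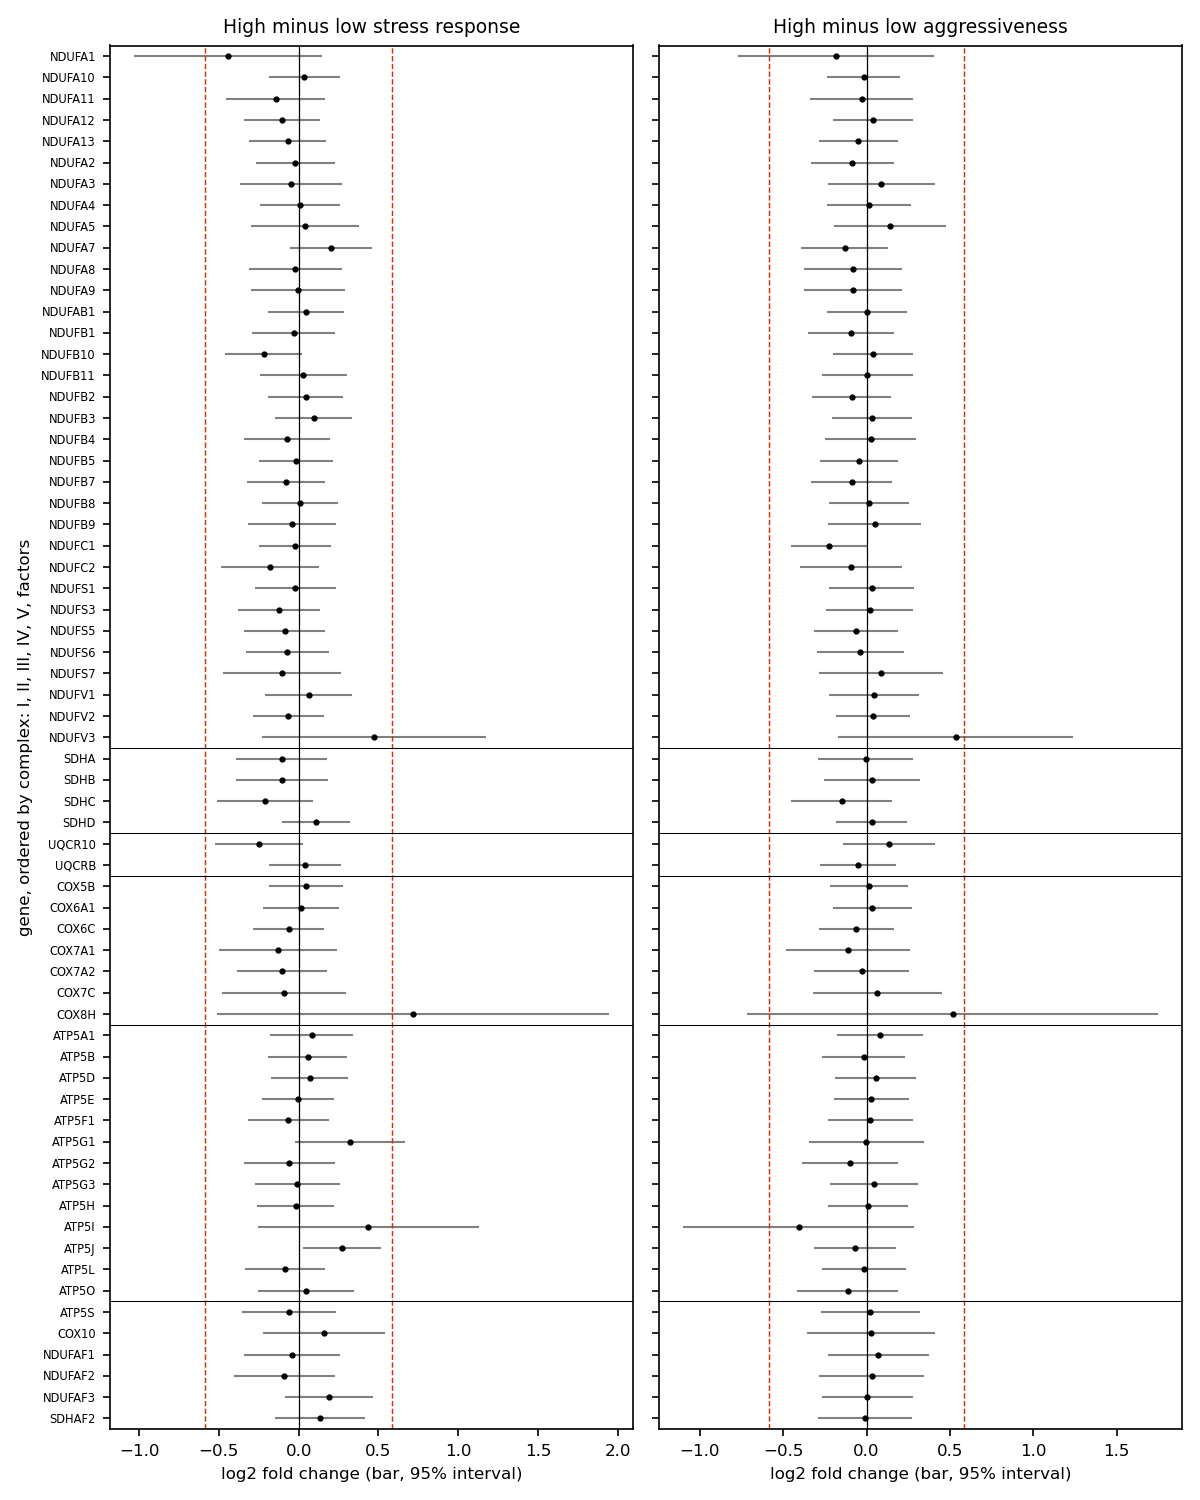
Log2 fold change of each of the 65 genes (points) with its 95% interval (bars), high minus low stress response on the left and high minus low aggressiveness on the right, with dashed lines at 1.5-fold. For stress response 60 intervals and for aggressiveness 61 lie wholly between the dashed lines, and none of the differences passed the adjusted threshold.

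For aggressiveness, too, none of the 65 members passed in limma (smallest adjusted p 1.00), 0 had an unadjusted p under 0.05 (3.22% of all tested), and 0 of 15999 probe sets passed (0%). High minus low aggressiveness, 35 members lay above 0 and 30 below, with a median of 0.01, and 52.0% of all tested lay above 0 with the same median. Under median centring 27 lay above 0, without low-low 3 17, and without high-high 2 22. For 61 members the interval lay within 1.5-fold, against 61.5% of all tested, most of which were dimmer than the members. For 0 members did the levels separate without overlap (0.0875% of all tested).

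The member with the smallest p was NDUFC1, an accessory subunit of the membrane arm of complex I. Its signals were 3360 to 4015 (median 3597) with low and 2671 to 3534 (median 3119) with high aggressiveness, and the log2 difference was -0.23 ± 0.10 (limma, unadjusted p = 0.0501, adjusted p = 1.00). NDUFV3, an accessory subunit of the NADH-oxidising module, differed by 0.53 ± 0.32 with an interval from -0.17 to 1.24. In complex II the differences ran from -0.15 ± 0.14 for SDHC to 0.03 ± 0.13 for SDHB, and in complex III they were 0.13 ± 0.13 for UQCR10 and -0.05 ± 0.10 for UQCRB.

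In complex IV, COX8H differed by 0.52 ± 0.56, COX7A1 by -0.11 ± 0.17 and COX6C by -0.06 ± 0.10. In complex V, ATP5I differed by -0.41 ± 0.32, ATP5O, which joins the stalk to the catalytic head, by -0.11 ± 0.14 and ATP5G2 by -0.10 ± 0.13. Of the factors, NDUFAF1 differed by 0.07 ± 0.14, NDUFAF2 by 0.03 ± 0.14, both assembly factors of complex I, and ATP5S, coupling factor B, by 0.02 ± 0.13. Each of these differences was smaller than 2 times its standard error.

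One sign of RNA quality was higher with high aggressiveness. The log2 ratio of 3′ to 5′ probe sets for the control transcript EF1A was 0.69 to 0.75 in the 6 pigs with low and 0.76 to 0.99 in the 6 with high aggressiveness, without overlap. With this ratio as a covariate the median over the members was 0.09 and 46 lay above 0, while over all tested the median was -0.08 and 40.7% lay above 0. As the ratio did not overlap between the levels, its part and that of aggressiveness cannot be told apart with this covariate.

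The second question of the crossed design is whether the stress difference depends on aggressiveness. None of the 65 passed for the interaction in limma (smallest adjusted p 0.999; 0% of all tested), and 1 had an unadjusted p under 0.05, against 3.87% of all tested. The stress difference at high minus that at low aggressiveness was below 0 in 51 of 65 members with a median of -0.14, against 50.6% and a median of -0.00 over all tested. Below 0 were 28 of 33 members of complex I, 2 of 4 of complex II, 2 of 2 of complex III, 7 of 7 of complex IV, 11 of 13 of complex V and 1 of 6 factors. The median was -0.06 without high-high 3 and -0.05 without low-low 3, the animals with the lowest scores, and -0.06 under median centring, where 22 members lay above 0 rather than 14. It was -0.08 without both arrays with the lowest median correlations, where 24 lay above 0.

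NDUFA5, an accessory subunit of the ubiquinone module of complex I, was the 1 member with an unadjusted p under 0.05 for the interaction. Its signals were 226, 250 and 325 in low-low, 253, 232 and 190 in low-high, 182, 215 and 228 in high-low and 363, 283 and 265 in high-high. Every high-high animal lay above every high-low and every low-high animal, while low-low overlapped each other group. The interaction was 0.73 ± 0.23 on the log2 scale (limma, unadjusted p = 0.0102, adjusted p = 0.999), above 0 where most members lay below 0. Over the alternatives it ran from 0.62 to 0.82.

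The next members by p were NDUFA7 (-0.35 ± 0.23), NDUFAF2 (0.41 ± 0.27), ATP5G1 (-0.43 ± 0.30) and NDUFV1 (-0.32 ± 0.24), the subunit that binds NADH. Leaving out low-low 3 gave -0.22 for ATP5G1, leaving out low-high 1 gave -0.28, and the value of NDUFAF2 was 0.26 without high-low 1. NDUFA7 had signals of 1102, 1238 and 947 in low-low, 1114, 1208 and 1050 in low-high, 1454, 1385 and 1415 in high-low and 1195, 1066 and 1179 in high-high. The 3 high-low animals lay above all 9 others, which overlapped one another.

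**Figure D4:**
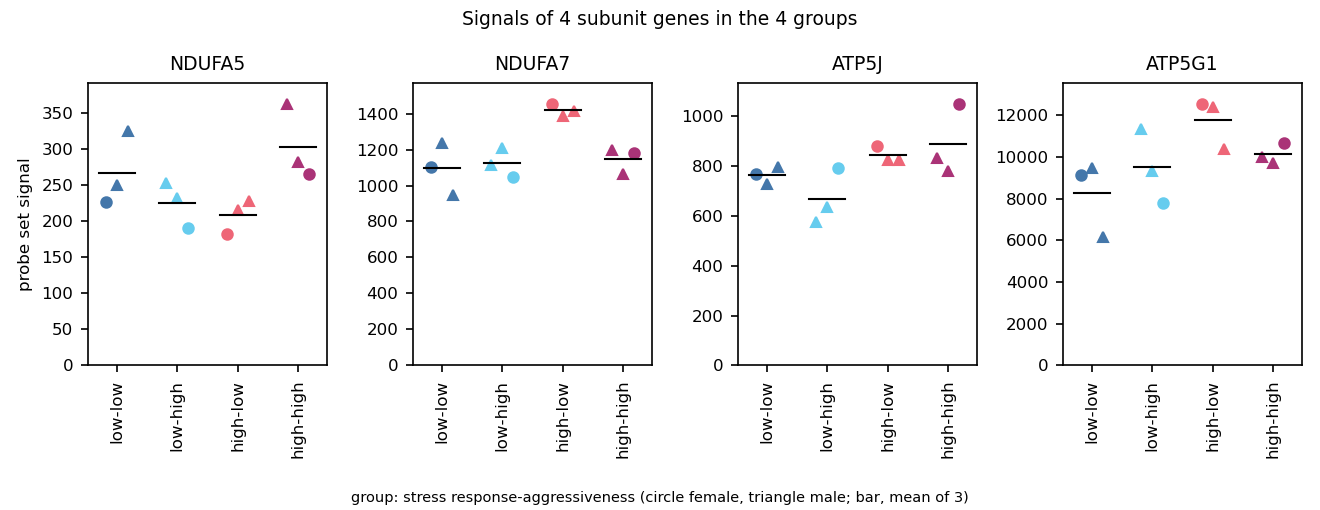
Probe set signals of NDUFA5, NDUFA7, ATP5J and ATP5G1 in the 4 groups, with axes from 0, circles for females, triangles for males and a bar for the mean of 3. For NDUFA7 the 3 high-low animals sit at 1385 to 1454, above all others, and for NDUFA5 the high-high animals sit at 265 to 363.

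Over the 4 groups together the moderated F test of limma called 0 of 65 members and 0% of all tested. Of the members 1, NDUFA5, had an unadjusted p under 0.05 (limma, unadjusted p = 0.0456, adjusted p = 1.00), against 4.69% of all tested. The next were ATP5J, NDUFA7, ATP5G1 and NDUFV3, with adjusted p of 1.00 each. The 6 contrasts of 2 groups, which share animals, called 0 members each, and of all 15999 tested they called 2 (0.0125%) for aggressiveness at high stress response and 0 (0%) for the other 5.

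High against low stress response at low aggressiveness had a median of 0.06 with 41 of 65 members above 0, against 55.3% of all tested, and 25 above 0 under median centring. At an unadjusted p under 0.05 there were 2 members, ATP5G1 (0.53 ± 0.21) and NDUFA7 (0.38 ± 0.16), against 5.12% of all tested. In 6 members the 3 animals of one group lay above the 3 of the other (10.8% of all tested), namely ATP5D, ATP5G1, ATP5J, NDUFA7, NDUFAF2 and NDUFC2. The ATP5G1 signals were 9122, 9445 and 6162 in low-low and 12540, 12410 and 10380 in high-low, and without low-low 3 the difference was 0.33.

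At high aggressiveness the same contrast had a median of -0.08 with 19 above 0, against 52.9% of all tested, and 29 above 0 without high-high 3. Here 2 members, ATP5J (0.41 ± 0.16) and NDUFA5 (0.40 ± 0.16), had an unadjusted p under 0.05, against 6.13% of all tested. The ATP5J signals were 575, 636 and 792 in low-high and 834, 781 and 1050 in high-high. The groups did not overlap in 6 members (10.8% of all tested), namely NDUFA5, NDUFB10, NDUFB9, NDUFV3, SDHAF2 and UQCR10.

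High against low aggressiveness at low stress response had a median of 0.05 with 45 members above 0, against 51.7% of all tested. This was 32 under median centring and 27 without low-low 3. No member had an unadjusted p under 0.05 (3.19% of all tested), and the groups did not overlap in COX7A1, NDUFC2 and UQCR10, 3 members against 7.73% of all tested. The smallest p belonged to NDUFA5 (-0.22 ± 0.16, and -0.12 without low-low 3) and COX8H (1.05 ± 0.80, and from 0.50 to 1.95 with 1 animal left out).

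At high stress response the median was -0.07 with 18 members above 0, against 51.0% of all tested, and 35 lay above 0 without high-high 3 and 33 among males alone. NDUFA5 differed by 0.50 ± 0.16 (limma, unadjusted p = 0.0114, adjusted p = 0.999), the 1 member with an unadjusted p under 0.05 against 3.63% of all tested, and NDUFA7 by -0.30 ± 0.16. The groups did not overlap in NDUFA13, NDUFA5, NDUFA7 and NDUFV3, 4 members against 7.54% of all tested.

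Both labels high against both low gave a median of -0.03 with 29 members above 0, against 55.7% of all tested. This was 14 under median centring, 15 without low-low 3 and 45 among males alone. None had an unadjusted p under 0.05 (5.80% of all tested), NDUFV3 (1.01 ± 0.46) and SDHC (-0.36 ± 0.20) had the smallest p, and ATP5G1 was the 1 member without overlap, against 11.2% of all tested. High-low against low-high gave a median of -0.02 with 29 above 0, against 52.5% of all tested, and 38 under quantile normalization. None had an unadjusted p under 0.05 (4.30% of all tested), ATP5J (0.34 ± 0.16) and NDUFA7 (0.33 ± 0.16) came first, and ATP5J, NDUFA7, NDUFB10 and UQCR10 did not overlap, 4 members against 9.30% of all tested.

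The 4 members with the widest range varied within the groups. COX8H had signals of 64, 15 and 18 in low-low, 153, 23 and 99 in low-high, 16, 195 and 154 in high-low and 160, 148 and 22 in high-high, so that 3 of the 4 groups held animals both at 23 or below and at 153 or above. NDUFV3 had 156, 44 and 49 in low-low, 34, 149 and 116 in low-high, 72, 63 and 122 in high-low and 154, 173 and 153 in high-high. In that last group its 3 signals lay close together, and low-low 1 at 156 lay among them.

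ATP5I had 1233, 2563 and 1656 in low-low, 1616, 1423 and 839 in low-high, 3046, 1594 and 2333 in high-low and 1394, 1075 and 3705 in high-high. Its highest signal was in high-high 3, where most members were low. NDUFA1 had 7199, 10280 and 5146 in low-low, 5476, 7129 and 8192 in low-high, 5222, 8139 and 4388 in high-low and 5556, 7365 and 2505 in high-high, with its lowest signal in that same animal. These are signals of the brighter NDUFA1 probe set (mean 6383). For the other (mean 5164) the SE of the stress difference was 0.10 against 0.27.

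**Figure D5:**
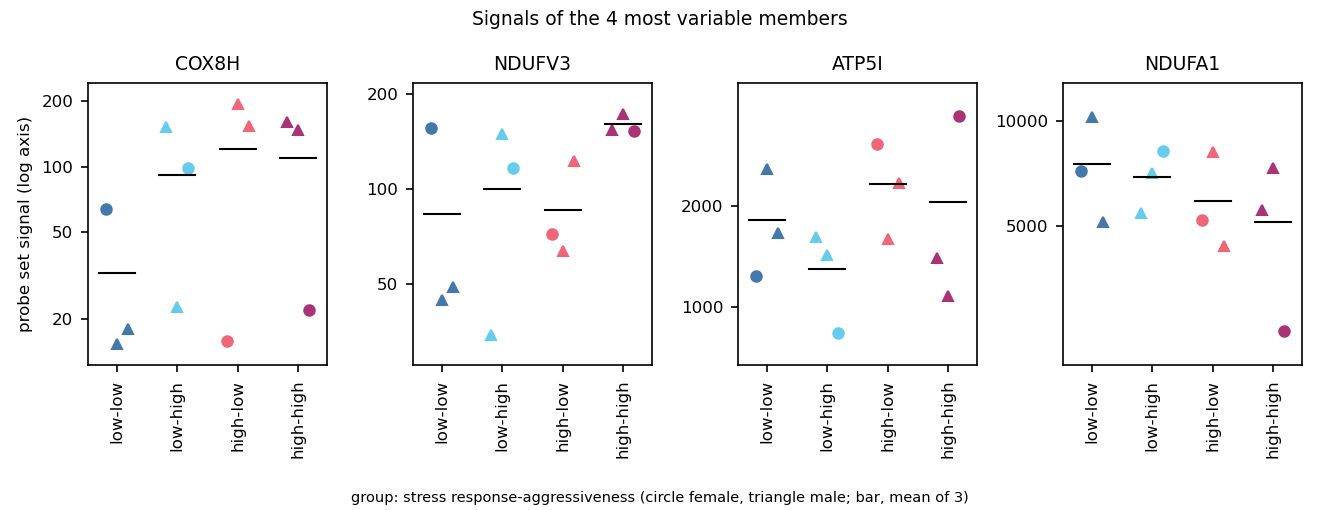
Probe set signals of COX8H, NDUFV3, ATP5I and NDUFA1, the 4 members whose highest signal was more than 4 times the lowest, by group on log axes, with circles for females, triangles for males and a bar for the mean of 3. In the NDUFV3 panel high-high lies above low-high and high-low, in the other panels every pair of groups overlaps, and high-high 3 has the highest ATP5I signal (3705) and the lowest NDUFA1 signal (2505).

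Sex was a term of the model and no question of the study. None of the 65 members passed in limma (smallest adjusted p 0.933), against 11 of 15999 probe sets (0.0688%), and 2 had an unadjusted p under 0.05, against 5.21% of all tested. Males minus females, 54 of 65 members lay above 0 with a median of 0.08, against 41.8% of all tested and a median of -0.04. The count was 30 of 33 in complex I, 4 of 4 in complex II, 2 of 2 in complex III, 6 of 7 in complex IV, 9 of 13 in complex V and 3 of 6 factors. Without high-high 3, 1 of the 4 females, 38 lay above 0 with a median of 0.03, while 43.8% of all tested lay above 0.

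COX7C, a small subunit of complex IV, had signals of 10980, 16970, 12270 and 16460 in the females, and in the males 12120 at the lowest, 20560 at the median and 21670 at the highest. Of the males 7 of 8 lay above every female, and the 8th, high-high 2, lay at 12120. The log2 difference was 0.47 ± 0.19 (limma, unadjusted p = 0.0284, adjusted p = 0.933). SDHB had 17400, 16140, 10780 and 13730 in the females and 16480 to 20450 (median 17790) in the males, a log2 difference of 0.34 ± 0.14 (limma, unadjusted p = 0.0339, adjusted p = 0.933) that was 0.19 without high-low 1.

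Genes around the respiratory chain were read from lists of the pathway, and none of their members passed for either label in limma. For stress response, 2 of 20 measured genes of the citric acid cycle and pyruvate dehydrogenase had an unadjusted p under 0.05, both higher (8.16% of all tested had such a p in either direction). They were SUCLA2, a subunit of succinyl-CoA synthetase (0.45 ± 0.13, adjusted p = 0.523), and FH, fumarate hydratase (0.33 ± 0.14, adjusted p = 0.572). A share of 2 in 20 is near that of all tested. The list as a whole had 10 above 0 and 10 below. For aggressiveness 0 of its genes reached that p, and PDP2, a phosphatase that activates pyruvate dehydrogenase (-0.21 ± 0.14), and SUCLA2 (0.17 ± 0.13) came first.

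Of 12 assembly factors named otherwise, 1 had an unadjusted p under 0.05 for either label, against 8.16% of all tested for stress response and 3.22% for aggressiveness. For stress response it was HIGD1A, which acts on complex IV (0.65 ± 0.23, adjusted p = 0.555), followed by its relative HIGD2A (-0.25 ± 0.14). For aggressiveness it was BCS1L, which inserts the iron-sulphur protein of complex III (0.29 ± 0.13, adjusted p = 1.00), followed by OXA1L, which inserts proteins into the inner membrane (0.17 ± 0.14). Among 8 electron carriers and genes of ubiquinone synthesis 0 reached that p for either label, and CYCS, cytochrome c, came first for stress response with 0.34 ± 0.18, before ETFB (-0.15 ± 0.14), a subunit of the electron transfer flavoprotein. For aggressiveness it was COQ6 (-0.29 ± 0.24) and COQ5 (-0.14 ± 0.13), enzymes of ubiquinone synthesis.

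Of 8 regulators of mitochondrial biogenesis 0 reached it, with 6 above 0 for stress response and SSBP1, which coats single-stranded mitochondrial DNA, first at 0.31 ± 0.16, before the coactivator PPRC1 (0.27 ± 0.25). For aggressiveness TFAM, which packs and transcribes mitochondrial DNA, came first at 0.15 ± 0.12, before SSBP1 at -0.14 ± 0.16. Of 14 carriers, porins and uncoupling proteins 0 reached it, and SLC25A1, the citrate carrier, came first for stress response with -0.29 ± 0.17, before the porin VDAC2 (0.18 ± 0.12). For aggressiveness it was TOMM20, an import receptor of the outer membrane (-0.18 ± 0.11), and the porin VDAC3 (0.13 ± 0.10).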

How the data were processed

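Liver RNA of 12 pigs was hybridised to Affymetrix porcine arrays, each animal on its own. The deposited values were linear intensity signals made by the authors with GCOS 1.1.1, per the submitters' processing notes, and how probes were summarised was not given in the sources used here. Signals were used as log2(deposited signal + 16). Of 24123 probe sets, 124 controls and then the 33.3% of the remaining 23999 with the lowest mean were left out, and 15999 were tested. Gene names came from the platform's annotation, in which 10069 of the 23999 carried 1 symbol, 198 carried several and 13732 were unnamed.

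limma 3.58.1 in R 4.3.3 was fitted with stress response, aggressiveness and sex (8 residual degrees of freedom). The interaction, the F test and the 6 contrasts came from a fit of the 4 groups and sex (7 residual degrees of freedom). P-values were adjusted by Benjamini-Hochberg over the 15999, errors of log2 differences are standard errors (SE), and intervals are 95%. All tests are two-sided, and p-values measure the spread between animals.

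The members and the lists were chosen with earlier results of these data known. Named were, for either label, the 3 members of each complex and of the factors with the smallest p (all 4 of complex II), 5 for the interaction and the F test, and 2 for each contrast and for sex. Also named were members with the widest range or with disagreeing probe sets, and the 2 genes of each pathway list with the smallest p. NDUFA4 was counted in complex I by its name, although it is now placed in complex IV. Alternatives were other models, filters, constants of 1 and 64, normalizations, RNA quality covariates, males alone and each animal left out. The fitting was tested on simulated data. Plots used Python 3.11.15 with matplotlib 3.10.9.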

Additional observations from a re-analysis of the deposited data

Results flagged for a closer look

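Among the 6 animals at each level of stress response or aggressiveness, 1 animal can lie far from the other 5. In 144 such sets of signals and scores the gap of the extreme animal exceeded 0.625 of the whole range in 13. For a single set of 6 independent values chance gives this in about 1 in 20. The 144 sets reuse the same 12 animals, and the scores contain genes that were also examined alone. The 13 can therefore not be set against that rate. High-high 3 accounted for 5 of the 13. Among pigs with high aggressiveness it had the lowest complex III score (-0.28, the others 0.03 to 0.11), the lowest UQCR10 signal (11180, the others 15520 to 17890), the lowest COX6C signal (16860, the others 19320 to 20490) and the highest ATP5I signal (3705, the others 839 to 1616). Among pigs with high stress response it had the lowest COX7A2 signal (9520, the others 12990 to 14060).

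High-low 1 had the lowest complex II score among pigs with low aggressiveness (-0.18, the others 0.01 to 0.09) and the lowest SDHB signal (10780, the others 17400 to 19270). High-low 3 had the lowest COX7A1 signal there (7056, the others 9448 to 10230). Low-low 3 had the lowest complex V score among pigs with low aggressiveness (-0.17, the others 0.00 to 0.10) and the lowest ATP5G2 signal among pigs with low stress response (8426, the others 9620 to 10280). With low stress response, SDHAF2 was highest in low-low 2 (1623, the others 1148 to 1248) and SDHC was lowest in low-high 3 (6371, the others 7421 to 7878). With high aggressiveness, UQCRB was highest in high-high 2 (6546, the others 5259 to 5667). What set these animals apart was not tested.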

How the results depend on the processing

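Under the alternatives run, 0 members passed in any comparison (278 counts, smallest adjusted p 0.454), and 253 medians moved by less than the SD of the score. That SD, 0.104, is larger than the median for stress response, so a median could turn in sign within it. The stress median did so without both arrays with the lowest median correlations. With each animal left out in turn it ran from -0.058 to 0.020. Medians also crossed 0 for aggressiveness (-0.029 to 0.037) and for stress response at low aggressiveness (-0.031 to 0.118). They did so for aggressiveness at low (-0.023 to 0.13) and at high stress response (-0.14 to 0.015). Both high against both low ran from -0.098 to 0.056, and high-low against low-high from -0.031 to 0.022. The sign held for stress response at high aggressiveness, the interaction and sex. No paired analysis was possible because the labels give no number that ties animals of different groups together. Values below are log2 differences, and the cause of each turn in sign was not tested. For stress response the sign turned for SDHA (0.016) and COX7A1 (0.11) without both arrays with the lowest median correlations. It turned for SDHB (0.0747) and ATP5I (-0.20) among males alone and for UQCRB (-0.0055) under median centring. With the mean over probe sets it turned for ATP5J (-0.14), and ATP5J in high-low against low-high was -0.33. For aggressiveness the mean over probe sets turned ATP5I (0.24), NDUFAF2 (-0.14) and ATP5S (-0.10). The second probe sets of ATP5I (mean signal 31.5) and NDUFAF2 (13.7) were too dim to be tested, while that of ATP5S (192.6) was tested. Males alone turned SDHB (-0.013), SDHA (0.13), COX7A1 (0.082), COX6C (0.0062), ATP5O (0.034), ATP5G2 (0.029), NDUFAF2 (-0.16) and ATP5S (-0.059). Quantile normalization turned SDHA (0.0057), and leaving out both arrays SDHA (0.048) and NDUFAF2 (-0.041). A covariate for the mean 3′ over 5′ ratio turned SDHB (-0.023), SDHA (0.0026), NDUFAF2 (-0.084) and ATP5S (-0.059). Because the EF1A ratio did not overlap between the levels of aggressiveness, its part and that of the label cannot be told apart in the values that follow. The EF1A ratio as a covariate turned SDHC (0.14), SDHB (-0.088), SDHA (0.036), UQCR10 (-0.025), UQCRB (0.012), COX8H (-0.60; -0.22 at low stress response), ATP5O (0.34), ATP5G2 (0.066), NDUFAF2 (-0.46) and ATP5S (-0.19). Leaving out 1 animal moved 35 of 55 gene values by over 1.5 times. With each animal left out in turn, values ran for stress response from -0.0018 to 0.0697 for UQCRB and -0.22 to 0.0081 for COX7A1. For aggressiveness they ran from -0.065 to 0.10 for SDHB, -0.062 to 0.083 for SDHA, -0.21 to 0.024 for COX7A1, -0.027 to 0.15 for NDUFAF1, -0.064 to 0.098 for NDUFAF2 and -0.053 to 0.0799 for ATP5S. Signals of COX8H and NDUFV3 were dim, and their intervals were wide.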

Other observations

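Further probe sets carried a symbol of the same families beside another symbol, so that the gene behind their signal was not settled and they were left out above. The probe set named for COX17, a copper chaperone of complex IV, and POPDC2 had 6532 ± 1090 with low and 6922 ± 783 with high stress response (SD, n = 6 each). The probe set named for COX6B, a subunit of complex IV, and ZBTB32 had 13910 ± 1980 and 14290 ± 1370. With low and high aggressiveness they had 6483 ± 892 and 6970 ± 978 for the first, and 13760 ± 1680 and 14430 ± 1680 for the second. In both the difference between the means was smaller than the SD between animals. The 2 probe sets named for NDUFAF7 and PRKD3 had mean signals of 78.2 and 93.9, and the 1 for ATP5SL had 111.2.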
